A study of Mus musculus with 12 samples.

Results

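Fc receptors are the proteins through which a macrophage senses antibody. The 6 Fc receptor genes described here are Fcgr1, Fcgr3, Fcgr4, Fcer1g, Fcgr2b and Fcgrt, and each was taken by its gene name from a table of 15393 genes in which every name has 1 row. All 6 were among the 12119 genes that were tested. They were measured by RNA-seq in adipose tissue macrophages (ATMs), sorted as CD45+ CD11b+ F4/80+ cells from the stromal vascular fraction (SVF), which is the part of digested fat that remains once the adipocytes are removed. The mice were wild type (WT) or carried a deletion of miR-146a in all cells (miR-146a-/-), both on a C57BL/6 background, and were fed normal chow diet (NCD) or high-fat diet (HFD). There were therefore 4 groups, WT NCD, miR-146a-/- NCD, WT HFD and miR-146a-/- HFD, with 3 libraries in each. The diets were fed from 6 weeks of age for 14 weeks, all mice were killed at 20 weeks, and each library held cells of 3 mice that were combined before the sort. The sources name no other allele or treatment, and the spread between libraries is a spread between pools and not between single mice.

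In mice, IgG that has coated a microbe or a dead cell is bound by Fc gamma receptors on the surface of macrophages. The activating receptors Fc gamma RI, RIII and RIV, encoded by Fcgr1, Fcgr3 and Fcgr4, pair with the common gamma chain encoded by Fcer1g, whose ITAM motif recruits the kinase Syk and sets off phagocytosis and cytokine release. The inhibitory receptor Fc gamma RIIb, encoded by Fcgr2b, carries an ITIM motif that recruits the phosphatase SHIP1 and dampens the same signals. The neonatal receptor FcRn, encoded by Fcgrt, works inside the cell, where it returns IgG and albumin to the surface instead of letting them be degraded. miR-146a is a microRNA that limits NF-kappa B signalling through the adaptors Traf6 and Irak1, and ATMs accumulate in obese fat.

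The deleted microRNA and the start regions of the 3 genes that encode the ligand-binding activating receptors are printed here, because the levels of Fcgr1 and Fcgr4 differed most clearly between groups. Sequences are those of RefSeq on GRCm38.p6, the coordinates are 1-based, and the table of FPKM was made on the same assembly (mm10). In the mature microRNA, from the minus strand of chromosome 11, the seed (bases 2 to 8) is in capitals.
mmu-miR-146a-5p: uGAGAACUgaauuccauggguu
Each promoter runs from 250 bases before an annotated RefSeq start of the gene to 50 bases after it. Capitals mark matches, on either strand, to a PU.1 core (GAGGAA) or to an interferon-stimulated response element (ISRE, GAAA followed by any 2 bases and GAAA again). Fcgr3 has 2 such starts that lie 9 bases apart, of which 1 is shown. Its window lies inside the span of the gene given below, which on the minus strand begins at 171064935. The window of Fcgr2b, not printed, also lies inside that gene's span.
Fcgr1, chr3:96293920-96294219, minus strand: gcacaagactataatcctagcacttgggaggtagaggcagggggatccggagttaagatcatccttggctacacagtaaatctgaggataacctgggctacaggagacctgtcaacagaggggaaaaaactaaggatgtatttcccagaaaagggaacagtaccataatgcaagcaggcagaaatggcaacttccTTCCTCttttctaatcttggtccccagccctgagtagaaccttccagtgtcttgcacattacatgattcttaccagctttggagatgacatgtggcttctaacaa
Fcgr3, chr1:171059345-171059644, minus strand: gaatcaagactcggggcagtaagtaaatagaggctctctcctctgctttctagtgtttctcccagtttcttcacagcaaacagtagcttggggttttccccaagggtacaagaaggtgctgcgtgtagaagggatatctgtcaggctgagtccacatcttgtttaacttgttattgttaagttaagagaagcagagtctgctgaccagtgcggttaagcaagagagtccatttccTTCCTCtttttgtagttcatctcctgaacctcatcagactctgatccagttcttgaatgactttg
Fcgr4, chr1:171018676-171018975, plus strand: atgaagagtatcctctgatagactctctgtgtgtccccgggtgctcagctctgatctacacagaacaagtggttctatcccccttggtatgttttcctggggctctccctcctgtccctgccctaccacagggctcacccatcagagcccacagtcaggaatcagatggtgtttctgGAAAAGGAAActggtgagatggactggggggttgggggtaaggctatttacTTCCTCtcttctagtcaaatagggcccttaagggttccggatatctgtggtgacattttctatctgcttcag
All 3 activating receptor genes held a PU.1 core on the opposite strand, with its first base 55, 15 and 22 bases before the start used for Fcgr1, Fcgr3 and Fcgr4. Fcgr4 also held an ISRE match 73 bases before its start. Neither motif was found in the windows of Fcer1g, Fcgr2b and Fcgrt. Among 32851 promoters of the same length, 28.3% held the PU.1 core and 3.44% the ISRE letters. The 7 letters that pair with the seed (AGTTCTC) occurred in a 3′ UTR of 1 of the 6 genes, Fcgr2b, where only the longest of the annotated 3′ UTRs (2397 bases) held them, against 13.5% of 13168 genes with an annotated 3′ UTR. A match is a description of the letters and not evidence of binding.

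Fcgr2b (ENSMUSG00000026656), Fcgr4 (ENSMUSG00000059089), Fcgr3 (ENSMUSG00000059498) and Fcer1g (ENSMUSG00000058715) are protein-coding genes that lie within 274 kb of chromosome 1. Fcgr2b spans 170960558 to 170976547, Fcgr4 spans 171018920 to 171029761, Fcgr3 spans 171051174 to 171064935 and Fcer1g spans 171229572 to 171234365, and of these only Fcgr4 is on the plus strand. Fcgr1 (ENSMUSG00000015947) lies on chromosome 3 from 96282909 to 96293969 and Fcgrt (ENSMUSG00000003420) on chromosome 7 from 45092993 to 45103822, both on the minus strand. Part of the sequence of Fcgr2b and Fcgr3 is identical, so that 12.8% of the 50-base stretches of the Fcgr3 transcript also occur in Fcgr2b, and how reads of such stretches were assigned is not stated. Of the 50-base stretches of the Fcgr2b transcript 11.4% occur in other genes, among them Fcgr3, Olfr1039 and Ntrk3. Values of Fcgr2b and Fcgr3 are uncertain to these extents, while no such stretch was shared by Fcgr1, Fcgr4, Fcer1g or Fcgrt. Antisense genes are annotated over Fcgr2b and Fcgrt, and whether reads were counted by strand is not stated either.

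The libraries held 9998868 to 11559282 reads counted to genes. Summed levels of 12 macrophage markers lay between 13771 and 16943 FPKM, and Adgre1, which encodes F4/80, reached 334 to 566 FPKM. One library stood apart from the rest. In miR-146a-/- HFD replicate 1 the 13 neutrophil markers summed to 19504 FPKM, against 521 and 561 in replicates 2 and 3 of that group, 587 to 1658 in the miR-146a-/- NCD libraries, 123 to 159.9 in WT NCD and 65.9 to 81.8 in WT HFD. The macrophage markers of this library summed to 13771 FPKM, below its neutrophil markers. Monocyte markers summed to 4232 FPKM in the same library and to 483 and 489.5 in the others of its group. Values that moved by much without this library are given with and without it. No row of the table names the miR-146a locus, so that the deletion itself could not be checked here.

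Fcgrt, Fcgr3 and Fcer1g were among the most abundant messages of these ATMs. Levels are given in FPKM, in which the reads of a gene are divided by its length and by the reads of the library. Over the 12 libraries the median level was 496 FPKM for Fcgrt, 463 for Fcgr3, 364 for Fcer1g, 117 for Fcgr2b, 47.2 for Fcgr4 and 39.2 for Fcgr1. Among the 12119 tested genes Fcgrt had a median rank of 88, Fcgr3 of 95 and Fcer1g of 124, whereas Fcgr1 had a median rank of 1437. The order was not firm between all neighbours. Fcgrt exceeded Fcgr3 in 8 of 12 libraries and Fcgr4 exceeded Fcgr1 in 6 of 12, while Fcer1g exceeded Fcgr2b in all 12. The range over libraries was narrow for Fcgr3, with a highest level 1.30 times the lowest, and wide for Fcgr4, with a highest level 17.8 times the lowest.

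**Figure D1:**
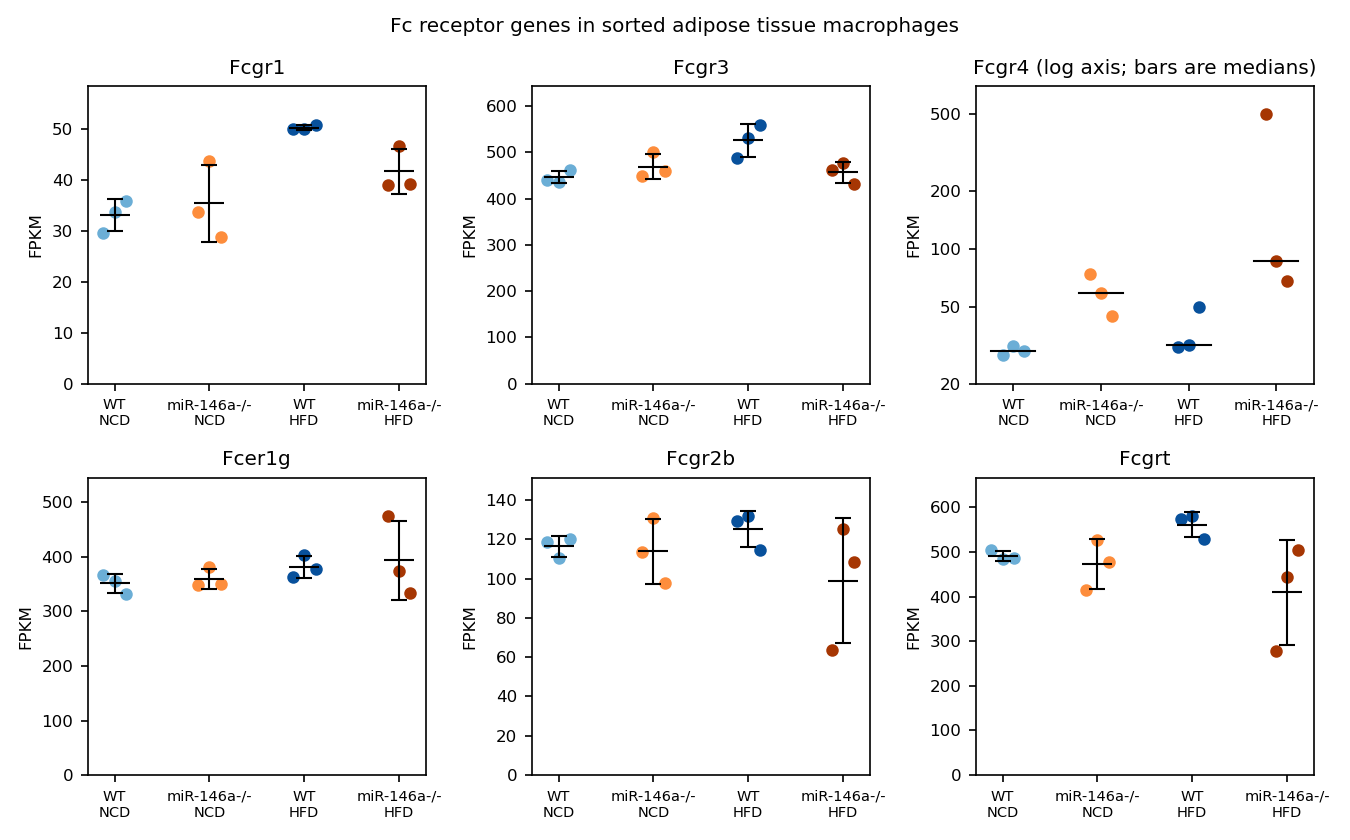
FPKM of each Fc receptor gene in the 12 libraries, with 1 point per library and the 4 groups on the horizontal axis. Bars are the mean and SD of 3 libraries, except for Fcgr4, which is drawn on a log axis with medians. Fcgr1 lies near 50 FPKM in the 3 WT HFD libraries and at or below 36.0 in WT NCD, and on each diet Fcgr4 lies higher in every miR-146a-/- library than in every WT library.

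Fcgr1, the gene of the high-affinity receptor for IgG, was the only one of the 6 genes that passed between diets, and it passed narrowly. It was at 29.7, 33.8 and 36.0 FPKM in the WT NCD libraries and at 50.1, 50.0 and 50.9 in the WT HFD libraries. The groups did not overlap, as was so for 30.3% of all tested genes in either direction. The WT HFD libraries differed from one another by less than 1 FPKM. Fcgr1 rose from a mean of 33.1 ± 3.20 to 50.3 ± 0.49 FPKM (SD, n = 3 libraries), a log2 fold change of 0.59 with a standard error (SE) of 0.14 and an adjusted p of 0.046 in limma. In this comparison 1 of the 6 genes passed, beside 2.98% of all tested genes in either direction and 0.825% in the upward direction. In miR-146a-/- ATMs Fcgr1 was at 33.6, 43.7 and 28.9 FPKM on NCD and at 39.1, 46.8 and 39.3 on HFD. These groups overlapped, since the second NCD library was above 2 of the HFD libraries, and the log2 fold change of 0.25 (SE 0.14) did not pass (limma adjusted p = 0.471). The diet effects of the 2 genotypes were not shown to differ (difference -0.35, 95% confidence interval -0.77 to 0.08, limma adjusted p = 0.493).

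Averaged over both genotypes, Fcgr1 rose on HFD by a log2 fold change of 0.42 (SE 0.10, limma adjusted p = 0.036), and it was the only one of the 6 genes to pass, beside 4.55% of all tested genes. An exact permutation test that exchanged diets within each genotype gave a two-sided p of 0.015 for Fcgr1, where the smallest p these permutations can give is 0.005. The call was a narrow one. With each library left out in turn the log2 fold change over both genotypes stayed between 0.35 and 0.50, but it passed in 3 of 12 cases only, those without miR-146a-/- NCD replicate 2, miR-146a-/- HFD replicate 1 or miR-146a-/- HFD replicate 3, with adjusted p-values of 0.009 to 0.093. In WT it stayed between 0.52 and 0.65 and passed in 4 of 12 cases, those without miR-146a-/- NCD replicate 2 or 3 or miR-146a-/- HFD replicate 1 or 2, with adjusted p-values up to 0.160. The call was lost in all 6 cases that left out a WT library, and without the filter on low genes (adjusted p = 0.051). The median log2 fold change of all tested genes in WT was 0.01, and Fcgr1 also passed with a median-ratio scaling of the libraries (adjusted p = 0.047). Of 12 macrophage markers 1 rose in WT on HFD, Csf1r, the receptor that macrophages need for survival (adjusted p = 0.017), and 3 were below 0. Without miR-146a-/- HFD replicate 1, 7 of the 12 rose in WT, beside 3.87% of all tested genes. Mast cell markers, with 5 of 7 tested, and dendritic cell markers, with 3 of 6, fell, beside 2.15% of all tested genes in that direction. In RNA of a sorted pool, a change in the share of cells that express a gene and a change in RNA per cell cannot be told apart.

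**Figure D2:**
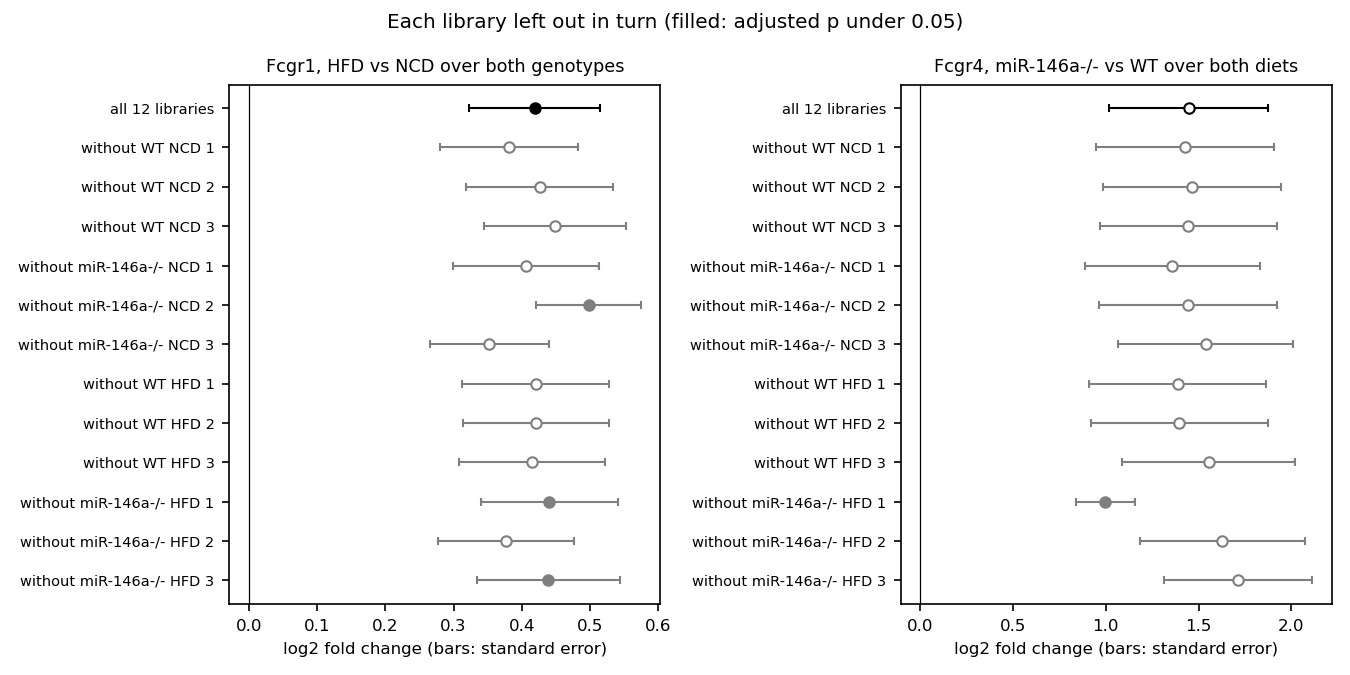
Log2 fold changes with standard errors from all 12 libraries and with each library left out in turn, for Fcgr1 between diets (left) and Fcgr4 between genotypes (right). Filled points passed at an adjusted p of 0.05. Fcgr1 stays between 0.35 and 0.50 and is filled in 3 of 12 cases, and Fcgr4 falls from 1.45 to 1.00 and becomes filled without miR-146a-/- HFD replicate 1.

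Fcgr4 encodes the low-affinity receptor Fc gamma RIV, which binds IgG2a/c and IgG2b and is carried in mice by macrophages, neutrophils and the non-classical type of monocyte. On each diet every miR-146a-/- library exceeded every WT library, but the difference did not pass the test over all genes. On NCD it was at 28.2, 31.4 and 29.6 FPKM in WT and at 74.3, 58.8 and 44.9 in miR-146a-/- libraries. The log2 fold change was 0.94 (SE 0.61, limma adjusted p = 0.874). On HFD it was at 30.8, 31.7 and 49.6 FPKM in WT and at 500.3, 86.6 and 67.9 in miR-146a-/- libraries. Replicate 1 stood far above the others, and the log2 fold change was 1.95 (SE 0.61, limma adjusted p = 0.164), or 1.05 without it (SE 0.24, adjusted p = 0.084). Groups that do not overlap are common in these data, with 10.4% of tested genes higher without overlap in miR-146a-/- on NCD and 8.51% on HFD, while 1.35% were so on both diets. For the difference over both diets the exact permutation test that exchanged genotypes within each diet gave a two-sided p of 0.005, the smallest it can give. This p is fixed once the groups do not overlap on either diet, so it adds no support of its own. For the same difference limma gave a log2 fold change of 1.45 (SE 0.43, adjusted p = 0.249).

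Without miR-146a-/- HFD replicate 1 the difference was smaller and its spread smaller still. The mean level on HFD was then 77.2 FPKM in place of 218, the log2 fold change over both diets was 1.00 (SE 0.16), and Fcgr4 then passed (limma adjusted p = 0.022). In that fit 137 of 12119 genes passed (1.13%), of which 85 were higher. With all 12 libraries 50 passed, of which 20 were higher. Between the diets and between the genotype effects, values of Fcgr4 were not shown to differ. The diet effect was 0.29 in WT (adjusted p = 0.843) and 1.29 in miR-146a-/- ATMs (adjusted p = 0.400), and the latter was 0.39 (adjusted p = 0.494) without replicate 1. The genotype effect on HFD exceeded that on NCD by 1.00 (95% confidence interval -0.91 to 2.92, adjusted p = 0.659), and by 0.11 without replicate 1.

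Neutrophils also carry Fc gamma RIV, and their markers moved with Fcgr4 between genotypes. S100a8, a calcium-binding protein abundant in neutrophils, was at 43.0, 63.9 and 57.3 FPKM in WT NCD libraries and at 607, 212 and 309.8 in miR-146a-/- NCD libraries. On HFD it was at 30.5, 21.5 and 19.1 in WT and at 7389, 214 and 197 in miR-146a-/- libraries, so that the same library was highest for S100a8 and for Fcgr4. Of 11 tested neutrophil markers 3 rose with genotype on HFD (Camp, Ltf and Ngp, which encode granule proteins) and 1 on NCD (Camp), beside 0.281% and 0.0578% of all tested genes in that direction. All 11 had log2 fold changes above 0 on both diets. Without miR-146a-/- HFD replicate 1, 6 of the 11 rose on HFD and 7 on NCD, beside 0.594% and 0.289% of all tested genes in that direction. Camp was listed at 0 in every WT library. The summed level of monocyte markers was 499.9 to 577 FPKM in WT NCD and 539.6 to 751 in miR-146a-/- NCD libraries, which overlapped, and 315 to 334 in WT HFD libraries, below all miR-146a-/- HFD libraries. None of the 10 passed between genotypes on either diet, with 9 of 10 above 0 on each, and without miR-146a-/- HFD replicate 1 Treml4, a receptor of non-classical monocytes and some macrophages, rose on HFD (log2 fold change 2.03, adjusted p = 0.023). In that fit 4 of the 10 monocyte and 8 of the 11 neutrophil markers rose over both diets, beside 0.701% of all tested genes. With all libraries 0 and 3 rose over both diets, beside 0.165%. Between diets in WT all 10 monocyte markers were below 0, with a median log2 fold change of -0.96. Of the 11 neutrophil markers 9 were below 0 and 1 above in that comparison, with a median of -0.30. The part of these cells in the level of Fcgr4 was not tested.

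**Figure D3:**
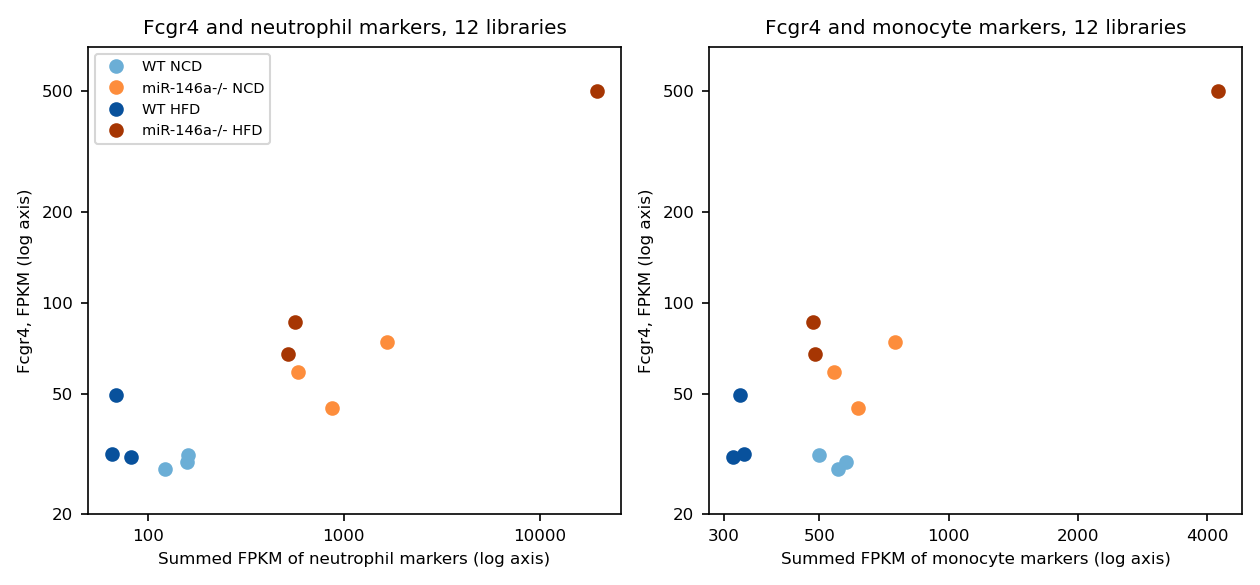
Fcgr4 (FPKM, vertical log axis) against the summed FPKM of 13 neutrophil markers (left) and 10 monocyte markers (right), both on horizontal log axes, with 1 point for each of the 12 libraries, coloured by group. One miR-146a-/- HFD library lies at 19504 and 4232 FPKM of markers and 500.3 FPKM of Fcgr4. The other 5 miR-146a-/- libraries lie above all 6 WT libraries for neutrophil markers.

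Fcgr3 encodes the low-affinity receptor Fc gamma RIII and was the most abundant of the ligand-binding activating receptors. It was at 440.4, 437 and 462 FPKM in WT NCD libraries and at 488, 530.3 and 559.7 in WT HFD libraries. These groups did not overlap, but the log2 fold change of 0.23 (SE 0.09) did not pass (limma adjusted p = 0.178). In miR-146a-/- libraries Fcgr3 was at 448, 500.4 and 459 FPKM on NCD and at 463, 477 and 432 on HFD, with overlapping groups and a log2 fold change of -0.04 (adjusted p = 0.898). On HFD all miR-146a-/- libraries were below all WT libraries (log2 fold change -0.20, standard error 0.09, limma adjusted p = 0.273), and the value was -0.21 without miR-146a-/- HFD replicate 1. The difference of the genotype effects between diets was -0.27 (95% confidence interval -0.55 to 0.003, limma adjusted p = 0.413). Both of the larger values of Fcgr3 rest on the same WT HFD libraries.

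Fcer1g encodes the common gamma chain, which the activating Fc gamma receptors need to reach the surface and to signal. It was at 366, 356 and 332 FPKM in WT NCD, at 349, 381 and 350.2 in miR-146a-/- NCD, at 363, 404 and 379 in WT HFD and at 475, 374 and 333 in miR-146a-/- HFD libraries, the highest value again being that of replicate 1. All groups overlapped. The log2 fold changes between pairs of groups lay between 0.03 and 0.12, with 95% confidence intervals within -0.24 and 0.39, and their adjusted p-values were 0.648 to 0.986. Without miR-146a-/- HFD replicate 1 the genotype effect on HFD turned from 0.03 to -0.11 (adjusted p = 0.569).

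Fcgr2b, the inhibitory receptor, was at 119, 110.2 and 120.3 FPKM in WT NCD and at 113, 131 and 97.6 in miR-146a-/- NCD libraries. On HFD it was at 129, 132 and 114 FPKM in WT and at 63.5, 125 and 108 in miR-146a-/- libraries. The groups overlapped on both diets, and the lowest of the 12 values was that of miR-146a-/- HFD replicate 1. The log2 fold change between genotypes was -0.04 on NCD (adjusted p = 0.993) and -0.39 on HFD (SE 0.21, limma adjusted p = 0.349), and the latter became -0.10 (adjusted p = 0.728) without that library. Fcgr2b, the member with letters that pair with the seed of miR-146a-5p, had 95% confidence intervals for the log2 fold change between genotypes of -0.50 to 0.42 on NCD and -0.85 to 0.07 on HFD.

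Fcgrt, the gene of FcRn, was at 504, 483 and 487 FPKM in WT NCD and at 414, 527 and 477 in miR-146a-/- NCD libraries, which overlapped. On HFD it was at 574, 579.8 and 529 in WT and at 278, 443 and 505 in miR-146a-/- libraries. All miR-146a-/- HFD libraries were below all WT HFD libraries, and replicate 1 was the lowest. On HFD the difference was -0.50 on the log2 scale (SE 0.18, limma adjusted p = 0.211), and it was -0.24 (SE 0.10, adjusted p = 0.300) without replicate 1. Over both diets the exact permutation test gave a two-sided p of 0.050 for Fcgrt, and limma a log2 fold change of -0.28 (adjusted p = 0.454), which was -0.15 (adjusted p = 0.410) without replicate 1. B2m, the beta-2 microglobulin light chain that FcRn requires, was at 1519.8 to 2330.3 FPKM in WT and at 2140.4 to 2421 in miR-146a-/- libraries, and its log2 fold change of 0.33 over both diets did not pass (adjusted p = 0.284).

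**Figure D4:**
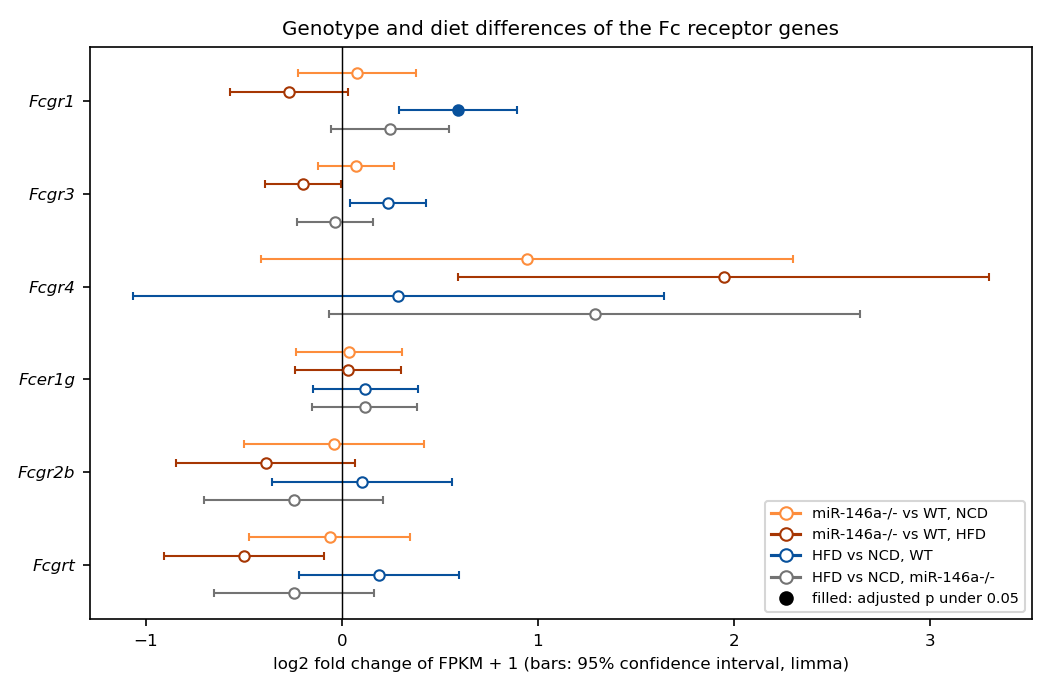
Log2 fold changes of FPKM + 1 with 95% confidence intervals from limma for the 6 Fc receptor genes, with 2 comparisons between genotypes and 2 between diets. The filled point passed at an adjusted p of 0.05. Only Fcgr1 between diets in WT, at 0.59, is filled, and the widest intervals are those of Fcgr4.

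None of the 6 passed between genotypes on NCD, beside 0.124% of tested genes, or on HFD, beside 0.627%. None passed between diets in miR-146a-/- ATMs, beside 0.759%, or over both diets between genotypes, beside 0.413%. At an unadjusted p under 0.05 the counts in limma were 0 on NCD (6.68% of all tested genes), 3 on HFD (17.5%), 0 between diets in miR-146a-/- ATMs (13.4%) and 1 over both diets (11.3%). With limma voom on the recovered reads none passed in these 4 comparisons either, and the unadjusted counts were 0, 3, 0 and 2. For the difference of the genotype effect between diets 0 of 6 and 0% of all genes passed with limma, with 0 of 6 and 12.2% of all genes at an unadjusted p under 0.05, and voom called none and had 1 of 6 unadjusted. Groups did not overlap for 1 of 6 genes between genotypes on NCD, beside 18.3% of tested genes, for 4 of 6 on HFD, beside 20.3%, for 3 of 6 between diets in WT, beside 30.3%, and for 0 of 6 between diets in miR-146a-/- ATMs, beside 17.5%. The 3 genes without overlap between diets in WT, Fcgr1, Fcgr3 and Fcgrt, were also those below WT on HFD, and both comparisons share the WT HFD libraries. All 12 exact permutation tests are counted in this family, 6 for genotype and 6 for diet, and besides the values given for Fcgr4, Fcgr1 and Fcgrt only the diet effect of Fcgr4 was at or below 0.05 (two-sided p = 0.045). These p-values were not adjusted for the 12 tests.

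The make-up of the receptor pool was computed for each library. As a share of the summed FPKM of the 3 activating receptors, Fcgr4 made up 5.84% ± 0.36 in WT NCD and 6.04% ± 1.28 in WT HFD ATMs (SD, n = 3 libraries). The share was 13.4%, 9.76% and 8.42% in the miR-146a-/- NCD libraries and 49.9%, 14.2% and 12.6% in the miR-146a-/- HFD libraries, so that all 6 miR-146a-/- libraries were above all 6 WT libraries. The activating receptors together stood at 4.38 ± 0.18 times the level of Fcgr2b in WT NCD, 4.99 ± 0.43 times in miR-146a-/- NCD and 4.94 ± 0.73 times in WT HFD ATMs. In miR-146a-/- HFD libraries this ratio was 15.8 in replicate 1 and 4.97 and 4.88 in the others, within the range of the WT HFD libraries, which was 4.40 to 5.77. The ratio of Fcgr3 to Fcgr2b was 3.71 to 4.89 in 11 libraries and 7.29 in replicate 1. These ratios use the same values as the tests of the single genes and were not tested.

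**Figure D5:**
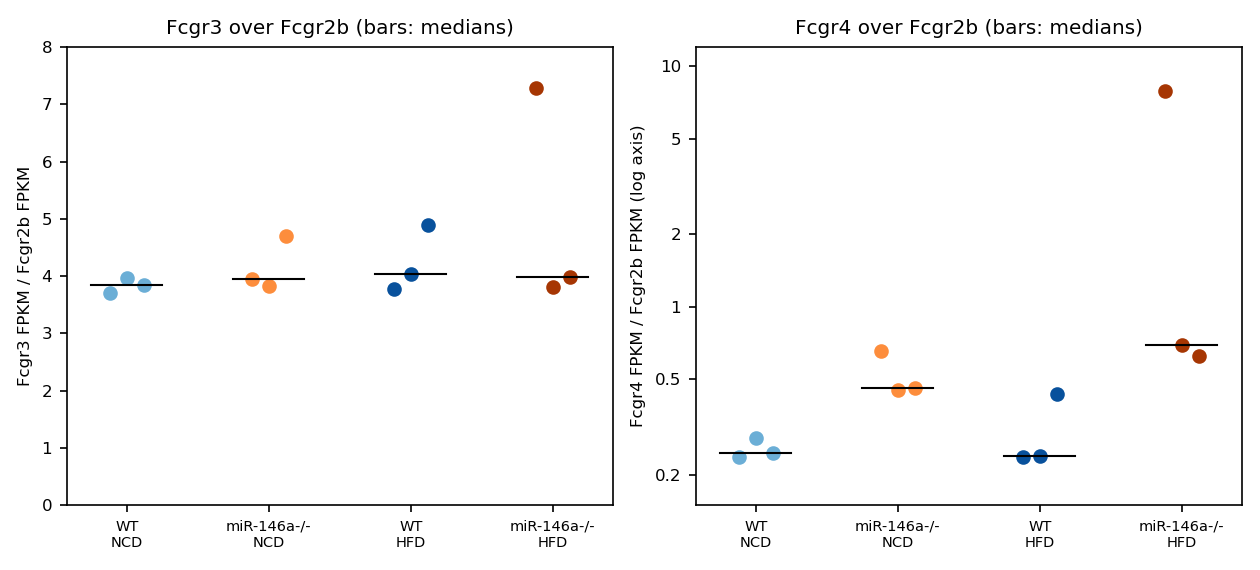
Ratio of FPKM of Fcgr3 to Fcgr2b (left, linear axis) and of Fcgr4 to Fcgr2b (right, log axis) in the 12 libraries, with 1 point per library and bars at the group medians. Fcgr3 stays between 3.71 and 4.89 times Fcgr2b in all libraries but miR-146a-/- HFD replicate 1, at 7.29, and the ratio of Fcgr4 is 0.45 or more in all miR-146a-/- libraries and 0.43 or less in all WT libraries.

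Other genes lie between the receptor genes on chromosome 1. Sdhc, a subunit of succinate dehydrogenase, and Tomm40l, a protein of the mitochondrial import pore, are the tested ones among them. Their log2 fold changes between genotypes were -0.14 and 0.12 on NCD and 0.00 and 0.02 on HFD, and none passed (adjusted p-values of 0.83 to 0.99). Tomm40l was at 5.77 ± 0.67 FPKM in WT NCD and 7.27 ± 0.09 in WT HFD ATMs. Its difference between diets did not pass in limma, in WT (adjusted p = 0.0996) or over both genotypes (adjusted p = 0.053).

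Correlations of log2(FPKM + 1) over the 12 libraries describe which genes varied alike, and the points share the 4 groups and 1 library that stands apart. The genes most like Fcgr1 were Cmklr1, the receptor for chemerin, with a Pearson r of 0.91, Fam3c, with 0.90, and Csf1r, with 0.90. Spearman's rho was 0.87, 0.91 and 0.90, and after the group means were removed r was 0.83, 0.61 and 0.64. Among the genes most like Fcgr4 were Tnfrsf1b, the TNF receptor 2, with an r of 0.97, and Cd300e, a receptor of non-classical monocytes, with 0.97. Without miR-146a-/- HFD replicate 1 these were 0.90 and 0.94. Those most like Fcgr3 were Fhit, Pydc4 and Ilk (r = 0.90, 0.89 and 0.88), those most like Fcer1g were Mov10, Card9 and Umps (0.94, 0.92 and 0.92, or 0.84, 0.78 and 0.75 without the same library), those most like Fcgr2b included Pcm1 and Atp2b1 (0.96 and 0.95, or 0.86 and 0.86 without it), and those most like Fcgrt were Rnf144b, Rnf150 and Fchsd2 (0.96, 0.96 and 0.96, or 0.94, 0.83 and 0.83 without it). Among the receptor genes themselves Fcgr1 and Fcgr3 varied together (r = 0.77, and 0.78 without the same library). The opposite course of Fcgr4 and Fcgrt (r = -0.89) fell to -0.56, and that of Fcgr4 and Fcgr2b (r = -0.81) to -0.13, once that library was left out, while Fcer1g and Fcgr2b turned from -0.57 to 0.60.

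Few genes that work with these receptors passed the test. Of 24 tested kinases and adaptors below the activating receptors none passed in any comparison with all 12 libraries. At an unadjusted p under 0.05 there were 0 on NCD and 7 on HFD between genotypes, beside 6.68% and 17.5% of all tested genes. Their median log2 fold change between genotypes on HFD was 0.17, against -0.02 for all tested genes, and 17 of 24 were above 0. Vav1, a guanine nucleotide exchange factor that acts downstream of Syk, and Lcp2, the adaptor SLP-76, had the smallest p-values in this comparison on HFD (log2 fold changes 0.37 and 0.59, adjusted p = 0.112 and 0.173). Without miR-146a-/- HFD replicate 1 the median on HFD was 0.11, and 16 of 24 were above 0. In that fit 1 of 24 rose between genotypes over both diets, beside 0.701% of all tested genes. Of 27 tested genes of the actin and uptake machinery none passed, with 21 above 0 between genotypes on HFD and a median of 0.10, and the actin-severing protein gelsolin, Gsn, had the smallest p there (log2 fold change -0.98, adjusted p = 0.111). The unadjusted counts for this list were 0 on NCD and 3 on HFD, a share below that of all tested genes, and without miR-146a-/- HFD replicate 1 the median on HFD was 0.055. None of the 4 tested partner chains and FcRn light chain passed, among them Tyrobp, the DAP12 adaptor, at 1208 to 2072 FPKM.

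Of 10 tested genes on the list of receptors that signal through the gamma chain, Klrk1 fell on HFD over both genotypes (log2 fold change -1.16, adjusted p = 0.011), none rose, and none passed between genotypes, in a comparison of diets where 3.56% of all tested genes fell and 0.982% rose. Klrk1 encodes NKG2D, a receptor of NK cells and T cells that is known to pair with DAP10 and DAP12 and not with the gamma chain. Clec4e, the receptor Mincle for mycobacterial glycolipids, had a log2 fold change of 2.00 between genotypes on HFD that did not pass (adjusted p = 0.133), and of 1.18 without miR-146a-/- HFD replicate 1 (adjusted p = 0.055). In that fit Clec4d, a related lectin receptor, rose on HFD between genotypes (1.29, adjusted p = 0.022), beside 0.594% of all tested genes. Of 18 tested inhibitory receptors and phosphatases, Sirpa, the receptor for the CD47 signal that restrains phagocytosis, rose on HFD over both genotypes, from 125 to 144 FPKM in NCD libraries to 161 to 183 in HFD libraries (log2 fold change 0.30, adjusted p = 0.015). The other 17 did not pass with all libraries. Without miR-146a-/- HFD replicate 1, 4 of the 18 rose on HFD over both genotypes, beside 2.97% of all tested genes. Of 13 tested transcription factors known to act on Fc receptor genes, Rel, a subunit of NF-kappa B, fell on HFD in WT (log2 fold change -0.96, adjusted p = 0.038), beside 2.15% of all tested genes, and Irf8 fell on HFD over both genotypes (-0.39, adjusted p = 0.048), beside 3.56%. None passed between genotypes, but without miR-146a-/- HFD replicate 1 Rel was higher in miR-146a-/- ATMs on HFD (0.84, adjusted p = 0.036), beside 0.594% of all tested genes.

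Of 6 tested other Fc receptors and relatives, 2 fell on HFD over both genotypes and none rose, beside 3.56% and 0.982% of all tested genes. Fcer1a, the IgE-binding chain of the mast cell receptor, fell by 1.98 on the log2 scale (adjusted p = 0.008), from 2.9 to 13.7 FPKM in NCD libraries to 0.1 to 3.1 in HFD libraries. Fcrla, a relative expressed in B cells, fell by 1.16 (adjusted p = 0.015). Mast cell markers summed to 135 to 365 FPKM on NCD and to 14.5 to 52.6 on HFD, with 6 of 7 tested lower over both genotypes, and Fcer1a and Fcrla are themselves on the marker lists of mast cells and B cells. Of 8 tested immunoglobulin constant regions 3 fell on HFD over both genotypes, the kappa light chain and the heavy chains of IgM and IgA, and none of them is an IgG heavy chain, which the receptors described here bind. Igkc fell by 2.59, Ighm by 1.26 and Igha by 4.81 on the log2 scale (adjusted p = 0.004, 0.007 and 0.022), while all 8 were below 0. Ighg2b, the heavy chain of IgG2b, was listed at 0 in all 6 WT libraries, at 40.0, 18.7 and 42.7 FPKM in miR-146a-/- NCD libraries and at 0.1, 11.7 and 0.6 in miR-146a-/- HFD libraries, and it rose on NCD (adjusted p = 0.045) and over both diets (adjusted p = 0.033, in a comparison where 0.165% of all tested genes rose). B cell markers in the same libraries summed to 18.1 to 23.2 FPKM in WT NCD and to 26.8 to 34.8 in miR-146a-/- NCD.

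Markers of other cells were also summed. The highest summed level in any library was 34.8 FPKM for B cell, 95.2 for T cell, 124 for NK cell, 16.1 for eosinophil, 22.1 for endothelial, 15.7 for mesothelial, 87.2 for adipocyte and 262 for red blood cell markers. It was 339.9 FPKM for dendritic cell and 808 for fibroblast markers. Dendritic cell markers were lower on HFD than on NCD in 4 of 6 tested genes over both genotypes, beside 3.56% of all tested genes. The part of these cells in the levels of the Fc receptor genes was not tested.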

How the data were processed

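Values are FPKM as deposited by the authors, divided by the listed gene length and by the reads counted to genes, with no further scaling between libraries. Multiplied back, all 184716 values gave whole reads within 1e-06 reads. The submitters' notes name Novoalign, DESeq2 and mm10 without versions or roles. Libraries were grouped by their labels. Genes whose mean over the libraries reached 1 FPKM were tested as log2(FPKM + 1) in limma 3.58.1 (R 4.3.3, lmFit and eBayes with trend and robust), with a mean for each group, and Benjamini-Hochberg adjustment ran over all tested genes of a comparison (threshold 0.05). A pseudocount of 1 understates changes of low genes. Each library pools mice, so that p-values measure the spread between pools. Exact permutation tests were two-sided. The members, 8 pathway lists, 14 marker lists and the motifs were chosen with earlier results of these data known. Besides the 6 genes, the text may name genes of a list that passed (up to 4) or had the 2 smallest p-values, the 3 genes most correlated with each member and up to 3 abundant markers of each cell type. Adgre1, Treml4, Sdhc and Tomm40l fall outside this rule and were named after their values were seen. List genes were matched through GENCODE M21. The fit was tested on simulated reads with the same spread setting for every gene and no library that stands apart. That test does not cover a library such as miR-146a-/- HFD replicate 1. Alternatives were another pseudocount, filters, scalings, array weights, voom on the recovered reads, the replicate number as a block and each library left out in turn. Figures used Python 3.11.15 and matplotlib 3.10.9. Some genes that the rule names are not reported.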

Additional observations from a re-analysis of the deposited data

How the results depend on the processing

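In all, 42 results for the 6 genes were recomputed under the alternatives. Of 402 values that did not leave out a library, 389 kept their direction and their side of the threshold. Fcgr1 lost its call between diets in WT without a filter (adjusted p = 0.051) and without the trend and robust estimate (adjusted p = 0.057), so that 0 of the 6 genes passed there. With array quality weights, Fcgr4 passed between genotypes on HFD (log2 fold change 1.41, adjusted p = 0.039) and over both diets (1.13, adjusted p = 0.033), which makes 1 of 6 in each. These weights turned the sign of differences that had not passed, to -0.0018 for Fcgr1 between genotypes on NCD, -0.021 for Fcer1g between genotypes on HFD, 0.0024 for Fcgr3 and 0.10 for Fcgr2b between diets in miR-146a-/- ATMs, and 0.12 for Fcgr2b and 0.063 for Fcgrt between diets over both genotypes. Median-ratio scaling turned Fcgr3 between diets in miR-146a-/- ATMs to 0.0074 and the difference of the Fcer1g effects to 0.047, as did quantile normalization for the latter (0.053). The cause was not tested.

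With each library left out, the number of the 6 genes that passed was 0 to 1 between diets in WT, over both genotypes and between genotypes over both diets. Differences that changed sign lay between -0.082 and 0.21 for Fcgr1, -0.0073 and 0.064 for Fcer1g, -0.14 and 0.066 for Fcgr2b and -0.14 and 0.029 for Fcgrt between genotypes on NCD, -0.11 and 0.14 for Fcer1g between genotypes on HFD and -0.038 and 0.089 over both diets, -0.069 and 0.010 for Fcgr3, -0.026 and 0.23 for Fcer1g, -0.44 and 0.041 for Fcgr2b and -0.42 and 0.0090 for Fcgrt between diets in miR-146a-/- ATMs, -0.15 and 0.11 for the difference of the Fcer1g effects, and -0.17 and 0.072 for Fcgr2b and -0.11 and 0.099 for Fcgrt between diets over both genotypes.

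The number of all genes that passed moved more: with array quality weights it was 66 on NCD (15 without weights), 594 on HFD (76), 1588 between diets in WT (361), 706 in miR-146a-/- ATMs (92), 274 (50) and 1973 (551) for the averaged effects and 42 (0) for the difference of the genotype effects between diets. With only the groups compared it was 57, 6, 755 and 2. Without a library it was 5 to 54, 12 to 113, 86 to 1185 and 17 to 198 in the same 4 comparisons, the highest number in each being that without miR-146a-/- HFD replicate 1.

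Libraries of different groups share replicate numbers, but the deviations of same-numbered libraries had a median correlation of 0.03 (-0.05 to 0.12, 18 pairs), against -0.01 for other pairs, so that the numbers were not taken as pairs. With the replicate number as a block, Fcgr1 passed between diets in WT (log2 fold change 0.59, adjusted p = 0.042) and over both genotypes (0.42, adjusted p = 0.035), and no call of the 6 genes changed. The lowest count behind a member's value was 371 reads, for Fcgr4 in a WT NCD library.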
